A study of Mus musculus with 23 samples.

Results

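The effect of spaceflight on mouse gastrocnemius was set against the effect of hindlimb suspension followed by a short return to weight bearing, gene by gene. The quantity described is the difference of effects, (spaceflight minus ground AEM) minus (reloaded minus control), with each effect taken inside its own experiment. It rests on 18 of the 23 arrays of the series: 4 spaceflight, 4 ground AEM, 5 control and 5 reloaded. The other 5 arrays, from muscle suspended without reloading, only added to the estimate of the spread and supplied values beside named genes. The members are the 29 genes called after reloading, of 9133 genes tested, each placed by what its flight effect did.

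All groups were female C57BL/6J mice aged 77 days. Spaceflight mice were flown for 11 days and 19 hours, and ground AEM mice were kept on Earth in an animal enclosure module, the housing used in flight, for equally long. From both groups the gastrocnemius, a large calf muscle, was profiled. In the other experiment calf muscle came from mice with no treatment over 12 days (control, ordinary cage housing), from mice whose hindlimbs were lifted off the floor by the tail for 12 days (suspension), and from mice treated in that way and then let down for 3.5 hours (reloaded). The experiments thus differ in tissue label, housing and duration as well as in flight, which cannot be told apart. The reloaded group also differs from control by the suspension itself, so a reloaded minus control value holds the change left by suspension plus that of the reloading hours. How long the flown mice bore weight between landing and dissection is not given in the sources used here. Group names follow the sample titles, source names and series design. The free-text descriptions are exchanged between the spaceflight and ground AEM samples, and if they were right every sign of the flight effect would turn. Whether arrays came from separate animals is not stated, so p-values measure only the spread between these samples.

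As background, a muscle that is loaded again after disuse is stretched and mildly injured, and within hours it makes heat shock chaperones, which refold damaged proteins, immediate-early transcription factors, and proteins of the Z-disc, the anchor of the sarcomere's actin filaments. Disuse itself shifts muscle away from fat and ketone oxidation. A muscle returned from orbit has been unloaded and has then met gravity again, so the same gene families are of interest in it.

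The arrays measured a log2 signal for each probe set, a group of short probes for a transcript. Median signal per array was 6.15 to 6.23 in the flight experiment and 6.29 to 6.34 in the control and reloaded groups, while the interquartile range was 2.75 to 2.91 in the first and 2.32 to 2.44 in the second. Levels were therefore not compared between experiments. Taking each effect within its own experiment removes a shift in level but not a difference in scale. Sizes in the difference of effects carry this limit, and its weight was not tested. Within the 4 groups no pair of arrays correlated below 0.992. Over the tested genes, the standard error had a median of 0.0898 for the flight effect, 0.0887 for the reloading effect and 0.133 for their difference. The 12 skeletal muscle markers had a summed log2 signal of 16.83 to 16.94 in the flight experiment and 16.85 to 16.96 in the calf experiment, and these markers cannot separate gastrocnemius from other calf muscle.

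After reloading, heat shock proteins, the stress factor Atf3, proteins of the Z-disc and the amino acid transporter Slc38a2 were higher than in control. These rises were not called in the flown muscle. For some of them, among them Hspb1, Ankrd1 and Csrp3, the difference of effects did not pass either, so a missing rise is not shown. The early growth and stress genes Jun, Ccn1, Hbegf and Ier5 were higher in both. Calls were made in limma where the p adjusted over all tested genes by the Benjamini-Hochberg method was below 0.05. Reloading called 29 genes (0.318% of those tested), 24 higher (0.263%) and 5 lower (0.0547%), while flight called 515 (5.64%), 290 higher (3.18%) and 225 lower (2.46%). Of the 29 reloading responses, 7 (0.0766% of all genes tested) were shown in flight, meaning called there in the same direction. Another 12 (0.131%) were lacked, meaning not called in flight and with a called difference of effects. The reloading effect that chose these genes is also part of the difference, so a called difference is no independent support. A single gene, Slc38a2, was reversed (0.0109%), and 9 (0.0985%) were unresolved because neither the flight effect nor the difference passed. The 7 shown genes make up 24.1% of the reloading calls and 1.36% of the flight calls. In all, 19 of the 29 had the same sign in flight.

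The difference of effects was called for 250 genes (2.74%), with 147 higher (1.61%) and 103 lower (1.13%) in flight relative to reloading. Of these, 190 had flight and reloading values of opposite sign and 60 of the same sign. Over all tested genes 47.6% had opposite signs. Opposite signs enlarge a difference by construction, so calling by the difference favours such genes and this count is no separate result. The called difference was at least 2-fold for 21 genes in each direction. Among the 250, 200 genes (2.19% of those tested) were called in flight and not after reloading, which is 38.8% of the flight calls. Here the difference likewise contains the flight effect that chose the genes. For 307 more (3.36%) the flight effect was called and neither the reloading effect nor the difference was. Flown and ground arrays did not overlap for 12.4% of genes, and reloaded and control arrays for 2.64%. The median flight effect over all tested genes was -0.01 and the median reloading effect -0.02 on the log2 scale.

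**Figure D1:**
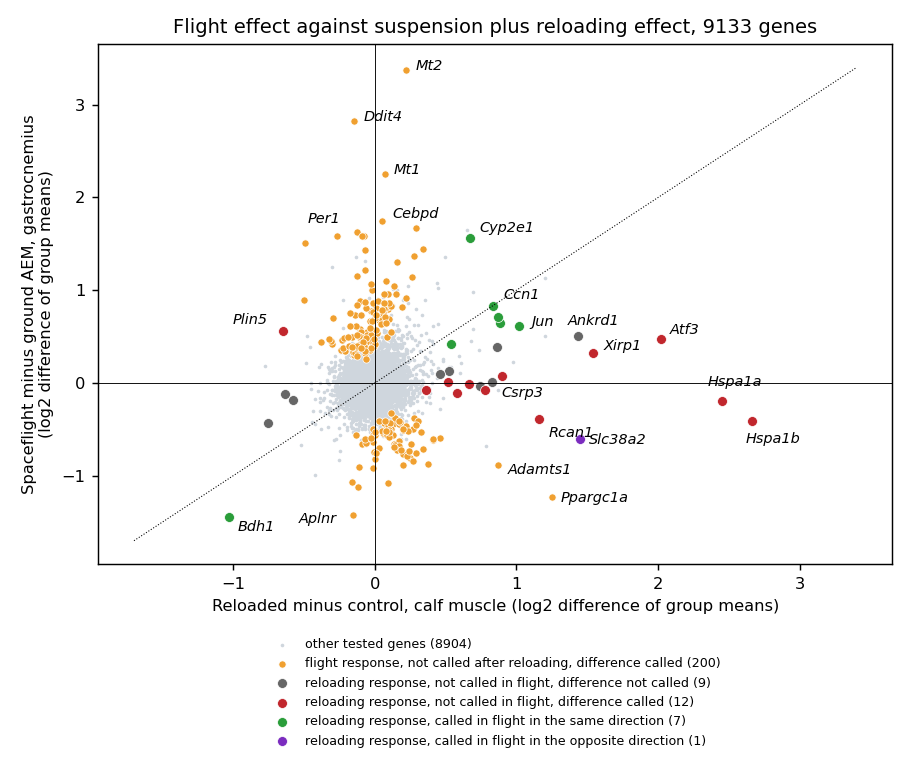
Each point is 1 of 9133 genes, with the reloaded minus control log2 difference on the horizontal axis and the spaceflight minus ground AEM log2 difference on the vertical axis; colours give the classes and the dotted line marks equal effects. The 12 lacked genes lie between -0.41 and 0.56 on the vertical axis, Slc38a2 lies at 1.45 and -0.60, and Mt2, Ddit4 and Mt1 lie high on the vertical axis with reloading values near 0.

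The promoters of Hspa1a and Hspa1b are shown because they had the largest reloading effects and called differences, that of Hspb1, whose difference was not called, as another heat shock gene called after reloading, and that of Rcan1 because its difference was among the largest. Each is the 250 bases before the gene's start on its own strand, from RefSeq on GRCm38.p6. Capitals mark a match to the heat shock element core GAANNTTC, or in Rcan1 to the cAMP response element TGACGTCA, searched on both strands. The positions are Hspa1a chr17:34972157-34972406 (- strand), Hspa1b chr17:34959239-34959488 (- strand), Hspb1 chr5:135887669-135887918 (+ strand) and Rcan1 chr16:92400079-92400328 (- strand).
Hspa1a: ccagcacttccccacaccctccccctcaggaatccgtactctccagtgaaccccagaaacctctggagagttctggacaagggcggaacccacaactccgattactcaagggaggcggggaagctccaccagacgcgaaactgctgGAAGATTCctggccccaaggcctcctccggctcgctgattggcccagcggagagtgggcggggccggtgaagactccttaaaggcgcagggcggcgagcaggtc
Hspa1b: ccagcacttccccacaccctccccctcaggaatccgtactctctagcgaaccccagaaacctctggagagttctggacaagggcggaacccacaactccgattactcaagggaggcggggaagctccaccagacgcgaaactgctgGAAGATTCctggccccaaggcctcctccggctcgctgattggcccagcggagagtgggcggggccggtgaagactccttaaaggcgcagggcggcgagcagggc
Hspb1: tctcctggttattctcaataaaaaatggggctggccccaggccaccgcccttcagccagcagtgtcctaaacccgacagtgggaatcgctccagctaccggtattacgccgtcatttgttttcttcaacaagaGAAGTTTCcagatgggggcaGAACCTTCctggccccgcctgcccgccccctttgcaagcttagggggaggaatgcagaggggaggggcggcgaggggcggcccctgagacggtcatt
Rcan1: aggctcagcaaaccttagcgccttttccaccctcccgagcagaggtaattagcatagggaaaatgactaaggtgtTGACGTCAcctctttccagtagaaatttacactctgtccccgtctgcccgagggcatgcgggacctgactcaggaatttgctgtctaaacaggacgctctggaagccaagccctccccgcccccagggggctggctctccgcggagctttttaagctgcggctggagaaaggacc
The windows of Hspa1a and Hspa1b are identical at 247 of 250 bases, and in both the match begins 104 bases before the start. Their coding sequences are near-identical as well, so probe sets of the pair may read both genes and the values are uncertain as to which gene they come from. The core was found in 9 of the 26 reloading genes that matched a window, namely Ankrd1, Asb5, Csrp3, Hspa1a, Hspa1b, Hspb1, Jun, Mustn1 and Rcan1. It was present in 6.69% of all 32851 windows. A gene can have several windows, and in Rcan1 the core lies in a window other than the printed one. The cAMP response element was in 1.55% of windows and, among the 26 genes, in Rcan1. A match of letters describes the window and is no evidence of binding.

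Inducible Hsp70, encoded by Hspa1b and Hspa1a, refolds proteins damaged by stress and was the largest reloading response. Hspa1b stood at 8.82, 8.99, 10.25, 10.36 and 10.61 in the reloaded arrays. In control it was 6.89, 6.98, 7.13, 7.19 and 7.50, and in the suspension arrays 6.60 to 7.08. Every reloaded array was thus above every control and suspension array. In flight it was 6.36, 6.45, 6.95 and 7.35, against 6.97, 6.98, 7.28 and 7.52 in ground AEM. The flown and ground arrays overlapped, and the flown ones reached lower. Reloading raised it 6.35-fold (log2 2.67 ± 0.26 SE, limma adjusted p = 1.39e-05), and the flight value was -0.41 ± 0.19 (adjusted p = 0.261). The difference of effects was -3.07 ± 0.37, with a 95% interval of -3.84 to -2.31 (adjusted p = 2.61e-05). Both other Hspa1b probe sets gave differences of -3.41 and -2.53.

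Hspa1a followed the same pattern. Its reloaded arrays read 8.09, 9.10, 9.61, 10.14 and 10.26, all above control at 6.66, 6.84, 6.96, 7.15 and 7.32. Flown arrays at 6.36, 6.46, 6.97 and 7.16 overlapped ground AEM at 6.66, 6.74, 6.94 and 7.36. The reloading effect was 2.45 ± 0.28 (5.47-fold, adjusted p = 5.22e-05), the flight effect -0.19 ± 0.18 and the difference -2.64 ± 0.39 (limma adjusted p = 0.00015). Hspa1a and Hspa1b kept their class with any single array left out.

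Co-chaperones and small heat shock proteins moved less. Dnajb4, an Hsp40 co-chaperone that hands proteins to Hsp70, was 9.41 to 9.96 in reloaded muscle against 8.75 to 9.41 in control, and 9.30 to 9.52 in flight against 9.30 to 9.66 in ground AEM. Its reloading effect was 0.66 ± 0.13 (adjusted p = 0.0279) and its difference -0.68 ± 0.19 (adjusted p = 0.0433). This call was fragile: the class held with 3 of 18 arrays left out in turn, and the adjusted p of the difference rose to as much as 0.115 without ground AEM replicate 3. Hspb1, a small heat shock protein that protects filaments, rose by 0.53 ± 0.11 on reloading (adjusted p = 0.0381) and had a flight value of 0.13 ± 0.10, and their difference did not pass (-0.39, adjusted p = 0.254; -0.52, adjusted p = 0.0317 without reloaded replicate 16). Its reloading call was lost without any one of 8 arrays (limma adjusted p up to 0.144, without reloaded replicate 18). Dnaja4, a further Hsp40, had values of -0.32 in flight and 0.33 after reloading, neither called, and a called difference of -0.65 ± 0.15 (adjusted p = 0.0141). Of 25 tested heat shock genes, 4 rose and 0 fell after reloading (0.263% and 0.0547% of all genes), 0 rose and 1 fell in flight (3.18% and 2.46%), and 0 were higher and 4 lower in the difference (1.61% and 1.13%). The flight count is near its share over all genes. The median difference of the list was -0.13, and over all tested genes it was 0.01. The small heat shock protein Cryab and the co-chaperone Bag3 had reloading values of 0.04 and 0.01.

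Atf3, a transcription factor induced by cell stress, stood at 7.79, 8.36, 8.93, 8.99 and 9.21 in reloaded muscle. Control arrays were at 6.19, 6.44, 6.52, 6.63 and 7.40. The groups did not overlap, although control replicate 2 came near. Flown arrays were at 6.56, 7.36, 7.48 and 8.00, and ground AEM at 6.50, 6.77, 7.11 and 7.13, so 3 flown arrays lay above all ground arrays and spaceflight replicate 11 among them. The reloading effect was 2.02 ± 0.22 (4.05-fold, adjusted p = 4.45e-05), the flight value 0.48 ± 0.24 (adjusted p = 0.288) and the difference -1.54 ± 0.35 (limma adjusted p = 0.0139). In a fit with trend and robust estimation the difference missed the threshold (limma adjusted p = 0.0531). Without spaceflight replicate 11 the flight effect was 0.74 and passed (adjusted p = 0.0369), so Atf3 then rose in both with a smaller size in flight.

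Rcan1, a feedback inhibitor of the calcium-activated phosphatase calcineurin, had values of opposite sign in the experiments. It was 8.84, 9.57, 9.71, 9.96 and 10.01 in reloaded arrays and 8.23, 8.44, 8.49, 8.56 and 8.58 in control. In flight it was 8.16, 8.37, 8.55 and 8.56, and in ground AEM 8.60, 8.70, 8.91 and 8.96. Neither pair of groups overlapped, with reloaded above control and flown below ground. The reloading effect was 1.16 ± 0.17 (2.24-fold, adjusted p = 0.00101), the flight value -0.38 ± 0.11 (adjusted p = 0.0601) and the difference -1.55 ± 0.23 (limma adjusted p = 0.000148). Another Rcan1 probe set, tested over all probe sets, gave -0.64 in flight (adjusted p = 0.0346) and 1.12 after reloading (adjusted p = 0.00141), which makes it reversed. On the chosen probe set the flight effect passed without ground AEM replicate 4 (-0.45, adjusted p = 0.0494).

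Xirp1, an actin-binding protein that gathers at damaged or stretched Z-discs, read 9.88, 10.99, 11.20, 11.20 and 11.63 after reloading. It read 9.17, 9.33, 9.34, 9.41 and 9.94 in control. Reloaded replicate 16 lay just below the highest control array, replicate 2, and the other reloaded arrays were above all controls. Flown arrays, at 9.57, 9.64, 10.23 and 10.31, overlapped ground AEM at 9.45, 9.48, 9.74 and 9.81. The reloading effect was 1.54 ± 0.21 (2.91-fold, adjusted p = 0.001), the flight value 0.32 ± 0.16 and the difference -1.22 ± 0.31 (limma adjusted p = 0.0274). The difference did not pass without any one of 8 arrays, and its adjusted p was then at most 0.073, without spaceflight replicate 9. It also missed the threshold in a fit with trend and robust estimation (limma adjusted p = 0.0874).

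For the other stretch-responsive genes the difference of effects mostly did not pass. Ankrd1, a stretch-responsive protein of the titin filament, rose by 1.44 ± 0.22 on reloading (adjusted p = 0.00194) and had a flight value of 0.51 ± 0.30. Its flown arrays spread from 6.57 to 8.53 where ground AEM lay within 6.75 to 6.95. The difference was -0.93 (adjusted p = 0.276), and -1.33 without spaceflight replicate 8, the highest array (adjusted p = 0.0278). Csrp3, a muscle LIM protein of the Z-disc, rose by 0.83 ± 0.13 on reloading, where all 5 arrays (10.33 to 11.12) lay above control (9.61 to 10.05). In flight it spread from 8.95 to 10.49 around a mean effect of 0.01 ± 0.24. Its difference was -0.82 (adjusted p = 0.124), and -1.05 without spaceflight replicate 10 (adjusted p = 0.0225). Mustn1, a small nuclear protein of the musculoskeletal system, rose by 0.87 ± 0.13 and had a flight value of 0.39 ± 0.15. Enah, an actin filament elongation factor, was lacked: reloaded arrays at 8.94 to 9.95 were above control at 8.38 to 8.79, flown and ground arrays overlapped, and the difference was -0.82 ± 0.21 (limma adjusted p = 0.0239), with adjusted p up to 0.0682 without spaceflight replicate 9. Of 24 tested stretch and Z-disc genes, 5 rose and 0 fell after reloading (0.263% and 0.0547% of all genes), 0 rose and 1 (Pdlim1) fell in flight (3.18% and 2.46%), and the difference was higher for 0 and lower for 2 (1.61% and 1.13%). Here too the flight count is near the share over all genes. Their median difference was -0.17.

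**Figure D2:**
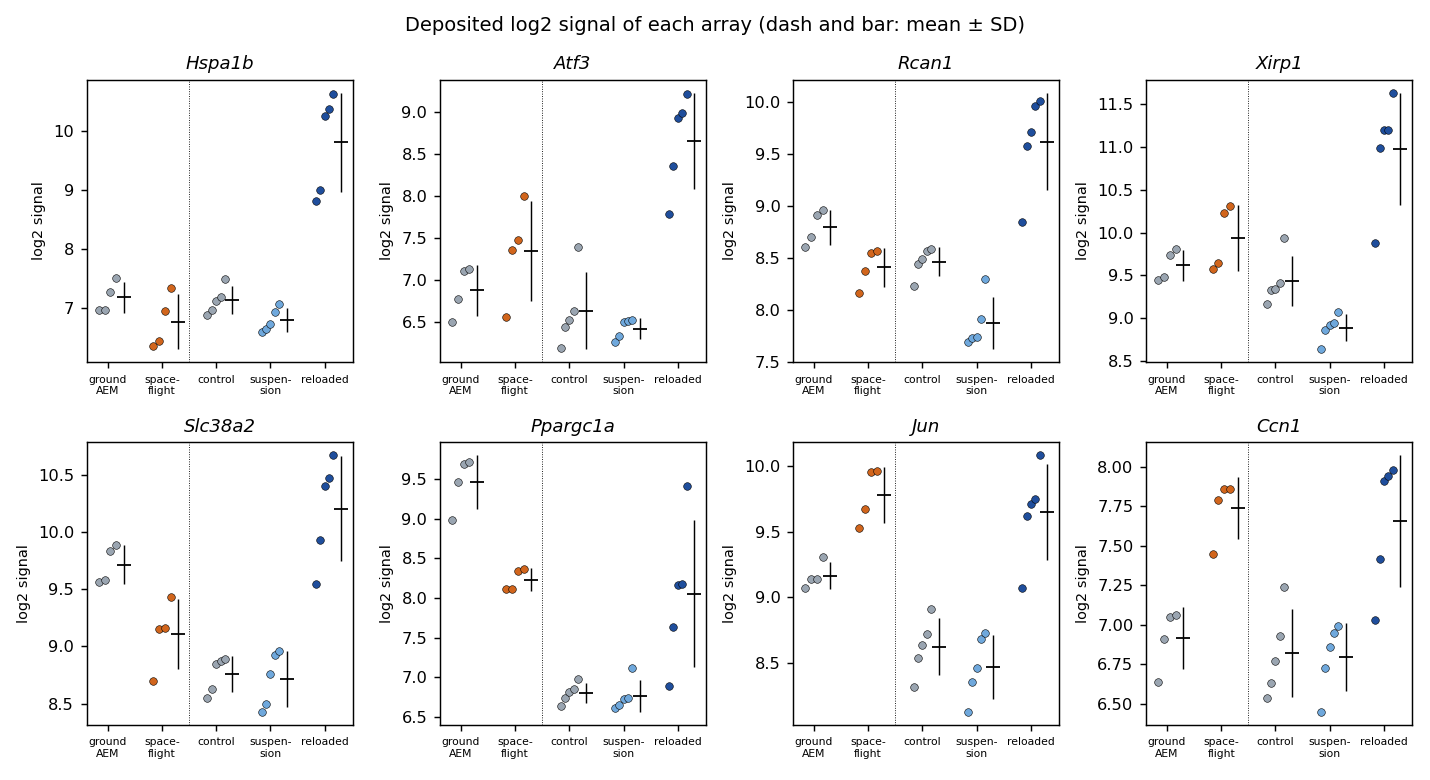
Deposited log2 signal of each array for 8 genes, by group, with the mean and SD beside the points; a dotted line separates the flight experiment from the calf experiment, between which levels are not comparable. Hspa1b and Rcan1 are high in reloaded arrays, and their flown arrays overlap or lie below ground AEM; for Atf3 and Xirp1 the reloaded arrays are high and some flown arrays lie above ground AEM; Slc38a2 and Ppargc1a fell in flight and sit high in most reloaded arrays, and Jun and Ccn1 are high in both flown and reloaded arrays.

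Slc38a2, a sodium-coupled importer of small neutral amino acids, was the reversed gene. Its signal was 9.55, 9.93, 10.40, 10.47 and 10.67 after reloading and 8.55, 8.63, 8.85, 8.87 and 8.89 in control. It was 8.70, 9.15, 9.16 and 9.43 in flight and 9.56, 9.58, 9.83 and 9.89 in ground AEM. All reloaded arrays were above control and all flown arrays below ground. Reloading raised it 2.73-fold (1.45 ± 0.16, adjusted p = 5.22e-05) and flight lowered it 1.52-fold (-0.60 ± 0.13, limma adjusted p = 0.0205). The difference of effects was -2.05 ± 0.24 (95% interval -2.54 to -1.56, adjusted p = 1.43e-05). Without ground AEM replicate 3 the flight value was -0.57 and missed the threshold (adjusted p = 0.0663).

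Ppargc1a, the coactivator PGC-1alpha that drives mitochondrial and oxidative genes, went the same way with more spread. Reloaded arrays read 6.89, 7.63, 8.17, 8.18 and 9.41, against 6.64, 6.74, 6.81, 6.86 and 6.98 in control. Flown arrays read 8.11, 8.11, 8.34 and 8.37, against 8.98, 9.46, 9.69 and 9.71 in ground AEM. The flown arrays were all below ground, while reloaded replicate 33 lay within control and the other 4 reloaded arrays above it. The flight effect was -1.23 ± 0.14 (2.34-fold lower, adjusted p = 0.000322), the reloading value 1.25 ± 0.27 (adjusted p = 0.056) and the difference -2.48 ± 0.38 (limma adjusted p = 0.00017). The reloading effect passed without reloaded replicate 33 (1.54, adjusted p = 0.00154) or replicate 16 (1.36, adjusted p = 0.0401). All 4 other probe sets were called in both experiments, with flight values of -0.55, -0.58, -0.87 and -1.08 and reloading values of 0.99, 1.21, 1.19 and 1.12 in the same order. Their adjusted p over all probe sets was at most 0.0399 after reloading. The chosen probe set, which has the highest mean signal, is thus the exception.

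Adamts1, a secreted protease of the extracellular matrix, had a flight effect of -0.89 ± 0.12 (adjusted p = 0.000625) with flown arrays at 6.16 to 6.62 all below ground AEM at 7.07 to 7.50. Its reloading value was 0.87 ± 0.20 (adjusted p = 0.0761), with reloaded arrays at 7.21 to 8.84 and control at 6.85 to 7.38. The difference was -1.76 ± 0.28 (limma adjusted p = 0.0003). Without reloaded replicate 16, the lowest array, the reloading effect was 1.05 and passed (adjusted p = 0.00698).

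Jun, a subunit of the AP-1 transcription factor, rose in both experiments. Flown arrays were at 9.53, 9.67, 9.95 and 9.96 and ground AEM at 9.07, 9.14, 9.14 and 9.31. Reloaded arrays were at 9.07, 9.62, 9.71, 9.75 and 10.08 and control at 8.32, 8.54, 8.64, 8.72 and 8.91. Neither pair of groups overlapped. The flight effect was 0.61 ± 0.10 (1.53-fold, adjusted p = 0.0039), the reloading effect 1.02 ± 0.15 (2.03-fold, limma adjusted p = 0.00132) and the difference -0.41, with a 95% interval of -0.84 to 0.02. Another Jun probe set, at a lower level, gave 0.14 and 0.49 and passed in neither.

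Ccn1, a matricellular protein induced by stretch and serum, had the closest match. It was 7.45, 7.79, 7.86 and 7.86 in flight and 6.64, 6.91, 7.05 and 7.06 in ground AEM. It was 7.03, 7.42, 7.91, 7.94 and 7.98 after reloading and 6.54, 6.63, 6.77, 6.93 and 7.24 in control. The flown arrays stood clear of ground, and reloaded replicate 16 lay within control. Both effects were 0.83 (SE 0.11 in flight, adjusted p = 0.000991; 0.16 after reloading, limma adjusted p = 0.0226), and the difference of -0.01 had a 95% interval of -0.48 to 0.47. The reloading effect lost its call without any one of 6 arrays, with values of 0.75 to 0.82 and adjusted p up to 0.0944, without control replicate 21.

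Hbegf, a membrane-bound ligand of the EGF receptor, had a flight effect of 0.64 ± 0.15 and a reloading effect of 0.88 ± 0.14. Its reloaded arrays (7.71 to 8.48) did not overlap control (6.96 to 7.51), while 1 ground AEM array, replicate 2 at 7.91, lay within the flown arrays (7.86 to 8.25). The flight call was lost without any one of 4 arrays (adjusted p up to 0.0733, without spaceflight replicate 9). Ier5, an immediate-early regulator of heat shock factor activity, had effects of 0.72 ± 0.11 and 0.87 ± 0.15, and another of its probe sets gave a flight value of -0.05. For none of the 7 shown genes did the difference of effects pass, and their intervals leave room for unequal sizes.

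The other immediate-early genes behaved unlike each other. Fos, the partner of Jun in AP-1, spread from 7.69 to 9.55 in flight and from 7.80 to 9.11 in ground AEM, with a flight value of 0.51 ± 0.37 and a reloading value of 1.20 ± 0.30 (limma adjusted p = 0.113). Egr1, a zinc finger factor, had values of -0.07 and 0.87, neither called. Btg2, an antiproliferative early gene, rose in flight by 1.65 ± 0.25 (adjusted p = 0.00196) and had a reloading value of 0.65 (adjusted p = 0.0814; 0.85, adjusted p = 4.7e-05, without reloaded replicate 16). Zfp36, which speeds decay of cytokine mRNAs, and Maff, a small Maf factor, rose in flight by 1.58 and 1.31 with reloading values of -0.09 and 0.16, and both differences passed. The Maff difference lost its call without any one of 3 arrays (limma adjusted p up to 0.0621, without ground AEM replicate 4). Klf4, a Krüppel-like factor, fell in flight (-0.91, adjusted p = 0.00851) with a reloading value of -0.01. Of 24 tested members, 6 rose and 2 fell in flight (3.18% and 2.46% of all genes). After reloading 3 rose and 0 fell (0.263% and 0.0547%), and the difference was higher for 2 and lower for 2 (1.61% and 1.13%). Myc lay below the signal filter and was not tested.

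**Figure D3:**
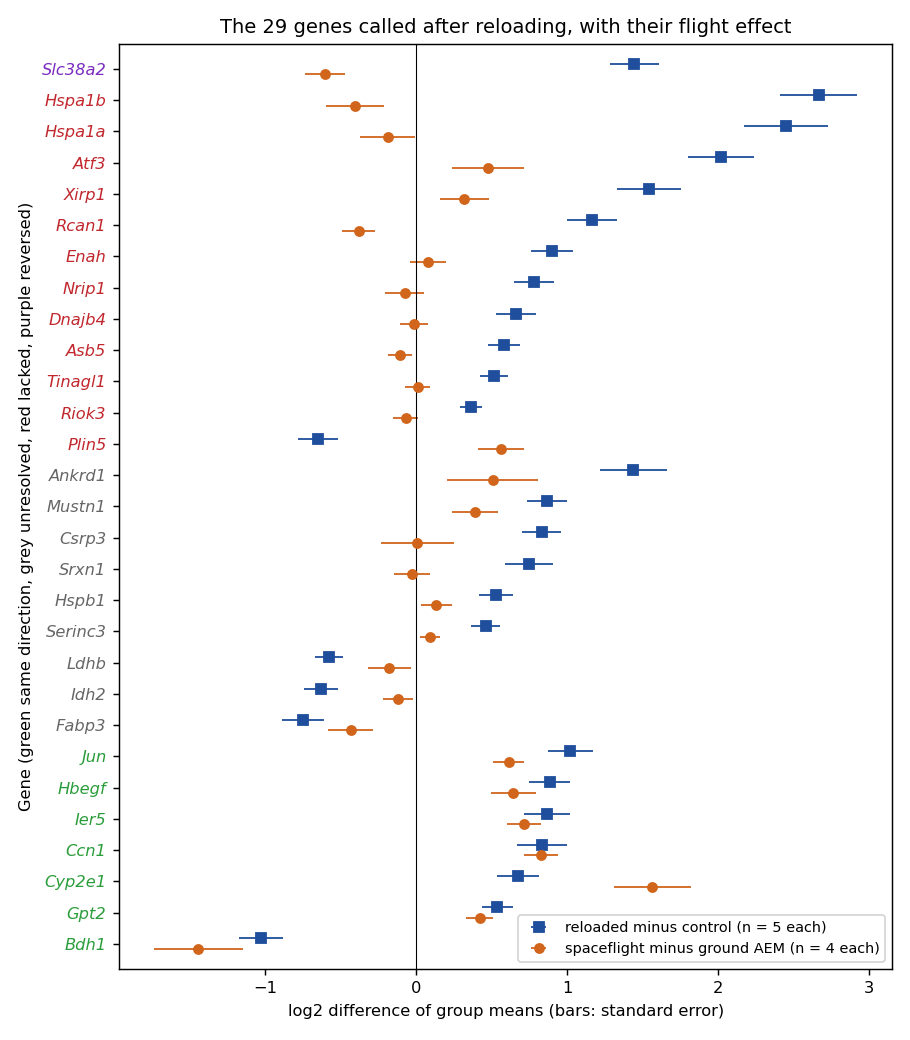
Log2 difference with its standard error for the 29 genes called after reloading, as reloaded minus control (squares) and spaceflight minus ground AEM (circles), ordered by class. Red names are lacked, grey unresolved, green shown and the purple name is Slc38a2, whose flight effect of -0.60 opposes its reloading effect of 1.45.

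Among the remaining lacked genes, Nrip1, a nuclear receptor corepressor of oxidative genes, rose by 0.78 ± 0.13 on reloading with a flight value of -0.08 ± 0.13 and a difference of -0.86 (limma adjusted p = 0.0163). Its other probe set disagreed, at 0.84 in flight (adjusted p = 0.0201) and 0.69 after reloading (adjusted p = 0.0366), which would place it among the shown genes. Asb5, an ankyrin and SOCS box protein, rose by 0.58 ± 0.11 with a difference of -0.69 (adjusted p = 0.00827), and its reloading call was lost without any one of 3 arrays (limma adjusted p up to 0.0566, without control replicate 19). Tinagl1, a secreted matricellular protein, rose by 0.52 and Riok3, an atypical kinase, by 0.36, with flight values of 0.01 and -0.07. Each kept its class with 9 of 18 arrays left out in turn: the Tinagl1 difference reached an adjusted p of 0.0886 without spaceflight replicate 10 and the Riok3 reloading effect one of 0.0956 without control replicate 21 (limma). The other Riok3 probe sets gave reloading values of 0.09, 0.14 and 0.21, and none passed there or in the difference. Srxn1, which repairs oxidised peroxiredoxins, rose by 0.75 with a flight value of -0.03 and a difference that missed the threshold (-0.77, adjusted p = 0.0689). Its reloading call was lost without any one of 8 arrays (limma adjusted p up to 0.186, without reloaded replicate 14) and in a fit with trend and robust estimation (adjusted p = 0.0966). Serinc3, a membrane protein, was unresolved with a reloading effect of 0.46, a call lost without any one of 7 arrays (limma adjusted p up to 0.138, without reloaded replicate 18).

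For the metabolic reloading responses the value after suspension alone is given as well. Bdh1, which oxidises the ketone body 3-hydroxybutyrate, was 6.31, 6.55, 6.86 and 8.00 in flight and 7.93, 8.22, 8.57 and 8.77 in ground AEM. It was 7.16, 7.25, 7.75, 7.81 and 7.88 after reloading and 8.55 to 8.64 in control. All reloaded arrays were below control, and all but 1 flown array below ground. The flight effect was -1.44 ± 0.29 (adjusted p = 0.012) and the reloading effect -1.03 ± 0.15 (limma adjusted p = 0.00101). Its suspension minus control value was -1.38 and its reloaded minus suspension value 0.35, which share the suspension arrays.

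Cyp2e1, a cytochrome P450 that oxidises ethanol and ketones, rose by 1.56 ± 0.26 in flight (8.19 to 9.79 against 6.95 to 7.62) and by 0.67 ± 0.14 after reloading (8.21 to 8.97 against 7.67 to 8.06), with no overlap in either. Its suspension minus control value was 1.10 and its reloaded minus suspension value -0.43. The reloading call was lost without any one of 7 arrays (adjusted p up to 0.13, without reloaded replicate 14), and the difference of 0.89 passed without spaceflight replicate 9 (1.12, limma adjusted p = 0.0276). Gpt2, the mitochondrial alanine aminotransferase, rose by 0.42 ± 0.09 and 0.54 ± 0.10, with a suspension minus control value of 0.60 and a reloaded minus suspension value of -0.06. Its reloading call was lost without any one of 4 arrays (limma adjusted p up to 0.0746, without reloaded replicate 18) and its flight call without any one of 3 (up to 0.059, without ground AEM replicate 3). Both other Gpt2 probe sets missed in flight, with values of 0.29 and 0.20 (limma adjusted p = 0.0903 and 0.5 over all probe sets). After reloading they gave 0.48 (adjusted p = 0.191) and 0.56 (adjusted p = 0.0341). With probe sets averaged the Gpt2 flight call was lost (0.30, adjusted p = 0.0793). Fabp3, which carries fatty acids in the cytosol, Idh2, a mitochondrial NADP isocitrate dehydrogenase, and Ldhb, the heart-type lactate dehydrogenase subunit, were lower after reloading by -0.75, -0.63 and -0.58. Their flight values were -0.44, -0.12 and -0.18, none called, and their suspension minus control values -1.03, -0.62 and -0.47.

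Plin5, a lipid droplet coat protein that tethers droplets to mitochondria, was the lacked gene that was lower after reloading. Reloaded arrays were 6.65, 6.68, 6.75, 7.03 and 7.08 and control arrays 7.06, 7.21, 7.57, 7.78 and 7.83. Flown arrays were 7.72, 7.77, 7.98 and 8.45 and ground AEM arrays 7.09, 7.43, 7.54 and 7.61. Flown arrays were all above ground, and reloaded replicate 15 lay within control. The reloading effect was -0.65 ± 0.13 (adjusted p = 0.0334), the flight value 0.56 ± 0.15 (adjusted p = 0.0508) and the difference 1.21 ± 0.22 (limma adjusted p = 0.00146). The flight effect passed without spaceflight replicate 8 (0.65, adjusted p = 0.0453), which makes Plin5 reversed, and the reloading call was lost without any one of 6 arrays (adjusted p up to 0.123, without control replicate 22).

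The largest differences in favour of flight were genes with little reloading value. Mt2, a metallothionein that binds zinc and copper, was 11.79, 11.97, 12.19 and 12.46 in flight and 7.76, 8.21, 8.44 and 10.51 in ground AEM. After reloading it was 8.10 to 8.67, and in control 8.02 to 8.49. Flown arrays lay above all ground arrays, of which replicate 2 stood far above the other 3, whereas reloaded and control arrays overlapped. The flight effect was 3.37 ± 0.43 (10.3-fold, adjusted p = 0.000596), the reloading value 0.22 ± 0.17 and the difference 3.15 ± 0.46 (limma adjusted p = 0.000124).

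Ddit4, an inhibitor of mTORC1 induced by glucocorticoids and energy stress, was 10.79, 11.23, 11.33 and 11.37 in flight and 7.39, 7.57, 7.80 and 10.68 in ground AEM, where the highest was again replicate 2. Its reloaded arrays (6.34 to 7.84) overlapped control (6.74 to 7.92). The flight effect was 2.82 ± 0.54, the reloading value -0.14 ± 0.29 and the difference 2.96 ± 0.63 (limma adjusted p = 0.00756). In a fit with trend and robust estimation the flight effect missed the threshold (limma adjusted p = 0.102). Ground AEM replicate 2 was the highest of its group in 68 of the 123 genes that were higher in flight with a called difference and no reloading call. Without this array, the flight effects were 3.59 for Ddit4 (12.1-fold) and 3.97 for Mt2 (15.6-fold), and the number of genes of this kind in either direction was 199 in place of 200.

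Other genes of this kind were Mt1, a metallothionein like Mt2 (flight 2.25, reloading 0.07), Cebpd, a CCAAT-binding factor of the acute stress response (1.74 and 0.05), Lcn2, an iron-siderophore carrier (1.62 and -0.13), and Sox4, an SRY-related factor (1.59 and -0.08). The limma adjusted p of these 4 differences was at most 0.00418. The clock gene Per1 (1.59 and -0.27) and the growth arrest gene Gadd45g (1.51 and -0.50) had values of opposite sign, with differences of 1.86 and 2.01. Cdkn1a, the cell cycle inhibitor p21, rose by 1.43 in flight with a reloading value of -0.07. Foxo1, a forkhead factor that switches on atrophy genes, rose by 1.37 with a reloading value of 0.28 and a difference of 1.09 (limma adjusted p = 0.00573). Of 24 tested glucocorticoid-responsive genes, 16 rose and 0 fell in flight (3.18% and 2.46% of all genes). After reloading 0 rose or fell (0.318%), and 12 were higher and 0 lower in the difference (1.61% and 1.13%). The list medians were 0.68, 0.05 and 0.75. Of 16 growth arrest and p53 genes, 7 rose in flight (3.18% of all genes), 0 were called after reloading (0.318%) and 4 were higher in the difference (1.61%). Of 16 clock genes, 4 rose in flight (3.18% of all genes), 0 were called after reloading (0.318%) and 4 were higher in the difference (1.61%). Bhlhe40, a light-responsive clock repressor, was higher in the difference (0.85, limma adjusted p = 0.0139) with uncalled values of 0.39 in flight and -0.46 after reloading.

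**Figure D4:**
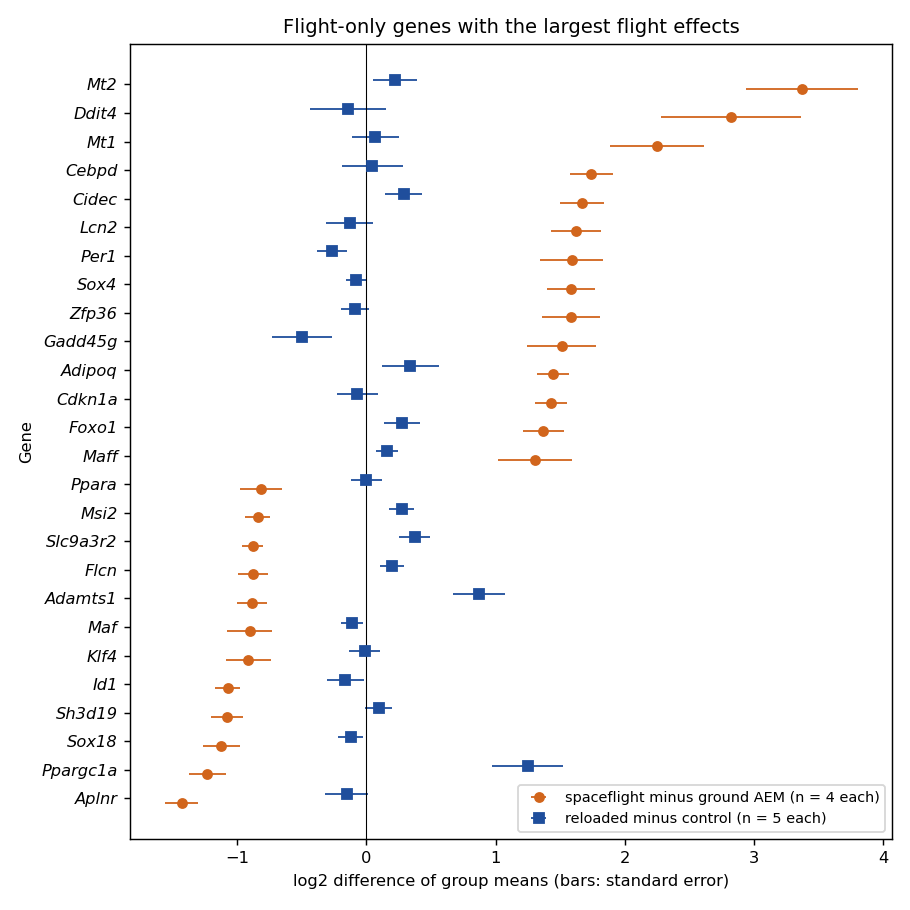
Log2 difference with its standard error for the 14 genes with the largest positive and the 12 with the largest negative flight effect among the 200 called in flight, not called after reloading and different between them. Flight effects (circles) run from -1.43 for Aplnr to 3.37 for Mt2, and the reloading values (squares) run from -0.50 for Gadd45g to 1.25 for Ppargc1a.

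Endothelial and BMP signalling genes were among those lower in flight relative to reloading. Aplnr, the apelin receptor, was 5.16, 5.18, 5.58 and 5.77 in flight and 6.68, 6.86, 6.91 and 6.96 in ground AEM. Its reloaded arrays (6.43 to 7.10) overlapped control (6.51 to 7.48), whereas flown arrays were all below ground. The difference was -1.28 ± 0.24 (limma adjusted p = 0.0024). Another Aplnr probe set, at a lower level, disagreed, with -0.26 in flight, 0.02 after reloading and a difference of -0.27. None of these values passed, so the Aplnr call rests on the chosen probe set. Sox18 and Sox7, endothelial transcription factors, fell in flight (-1.12 and -0.79) with reloading values of -0.12 and 0.23, and Id1, an inhibitor of differentiation downstream of BMP receptors, had a difference of -0.91. Of 18 tested genes in this list, 0 rose and 9 fell in flight (3.18% and 2.46% of all genes). After reloading 0 were called (0.318%), and 5 were lower in the difference (1.13%). The list medians were -0.33, -0.12 and -0.28. Among 13 endothelial identity markers 1 fell in flight and 0 were called after reloading, and their summed log2 signal was 11.09 to 11.16 in flight and 11.08 to 11.20 in ground AEM, and these ranges overlapped. In bulk muscle fewer cells of a type and less RNA per cell cannot be told apart.

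Vegfa, the main endothelial growth factor, was lower in flight (-0.59, adjusted p = 0.0146) with a reloading value of -0.03 and a difference of -0.56 (limma adjusted p = 0.0299), a call lost without any one of 8 arrays (adjusted p up to 0.0722, without ground AEM replicate 1). Ccn2, a matricellular relative of Ccn1, fell in flight by 0.55 on the log2 scale while Ccn1 rose; the Ccn2 call was lost without any one of 6 arrays (limma adjusted p up to 0.0936, without ground AEM replicate 3). Of 12 tested CCN proteins and growth factors, 2 rose and 3 fell in flight (3.18% and 2.46% of all genes). After reloading 2 rose (0.263%), and 1 was lower in the difference (1.13%). Cytoskeletal genes contributed Tpm4, a tropomyosin, Tuba1a, an alpha-tubulin, and Tagln2, a transgelin, which fell in flight (-0.53, -0.69 and -0.41) and had reloading values of 0.33, 0.14 and 0.08. All 3 differences passed, of 31 tested members (2.74% of all genes). That of Tagln2 lost its call without any one of 10 arrays (limma adjusted p up to 0.0927, without ground AEM replicate 3) and under quantile normalization (adjusted p = 0.0563).

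Of 35 tested collagen and matrix genes, 0 rose and 9 fell in flight (2.46% of all genes), 0 were called after reloading, and 1 (Lama4, a laminin chain of vessel walls, -0.44) was lower in the difference. Col1a1, the main fibrillar collagen chain, had a flight effect of -0.99 and a reloading value of -0.42 ± 0.38, with a difference of -0.58 whose 95% interval ran from -1.67 to 0.52. Its flight call was lost without any one of 5 arrays (limma adjusted p up to 0.0808, without ground AEM replicate 3). The summed log2 signal of 14 tendon markers was 10.94 to 11.35 in flight, 11.15 to 12.16 in ground AEM, 12.22 to 12.46 in reloaded and 12.21 to 12.43 in control muscle, and 1 of them was called lower in flight. Its part in the collagen values was not tested.

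Of 9 tested adipocyte markers, 5 rose (3.18% of all genes), 0 fell and 4 did not pass in flight, 0 were called after reloading and 4 were higher in the difference, with medians of 0.62, 0.09 and 0.58. Cidec, a lipid droplet protein, had a difference of 1.38 (limma adjusted p = 0.00103) and Adipoq, the hormone adiponectin, one of 1.10 (adjusted p = 0.0444) that passed with only 3 of 18 arrays left out in turn, its adjusted p reaching 0.101 without ground AEM replicate 2. The list's summed log2 signal was 14.03 to 14.18 in flight and 13.97 to 14.09 in ground AEM. It was 14.00 to 14.22 in reloaded and 13.76 to 14.27 in control muscle, so groups overlapped in both experiments. The sum is set mostly by members with the highest signal and says little about the others. Adipoq itself, at 9.68 to 10.08 in flight and 8.08 to 8.62 in ground AEM, did not overlap there.

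The amino acid list, which also holds the mitochondrial ATP-magnesium carrier Slc25a25, split by gene. Slc7a8, a transporter of neutral amino acids, and Slc25a25 were higher in the difference (0.63 and 1.39). Slc38a2 and Smox, which oxidises spermine, were lower (-2.05 and -0.74). The Slc7a8 difference lost its call without any one of 12 arrays (limma adjusted p up to 0.128, without spaceflight replicate 9), with arrays centred on their median (adjusted p = 0.0626), without a filter (0.0584) and without the suspension arrays (0.0516). Of 24 tested members, 5 rose and 2 fell in flight and 2 rose after reloading. In the insulin and IGF1 pathway, 7 of 24 rose and 1 fell in flight and 0 were called after reloading; Irs1, the insulin receptor substrate, was lower in the difference (-0.72) and Foxo3, a relative of Foxo1, higher (0.43), a call lost without any one of 11 arrays (limma adjusted p up to 0.0916, without ground AEM replicate 4). Beside the counts of the gene lists, 3.18% of all genes rose and 2.46% fell in flight, 0.318% were called after reloading and 2.74% in the difference. Of 55 oxidative phosphorylation genes, 1 fell in flight, 0 were called after reloading and 0 in the difference, none of them above those shares, with medians of -0.09, -0.11 and 0.01. Of 28 fatty acid genes, 1 rose and 2 fell in flight, 1 was lower after reloading, and in the difference 1 was higher and 2 lower: Mlycd, malonyl-CoA decarboxylase (0.57), Ppara, a nuclear receptor for fatty acids (-0.81), and Ppargc1a. The differences of Mlycd and Ppara lost their calls without any one of 9 and 8 arrays (limma adjusted p up to 0.091, without ground AEM replicate 4, and 0.0844, without spaceflight replicate 9). Myog, a myogenic factor that rises on denervation, was higher in flight (0.84) with a difference of 0.97 (limma adjusted p = 0.0111). Among 14 fast fibre genes 0 were called in either effect, and among 14 slow fibre genes 1 rose and 2 fell in flight.

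**Figure D5:**
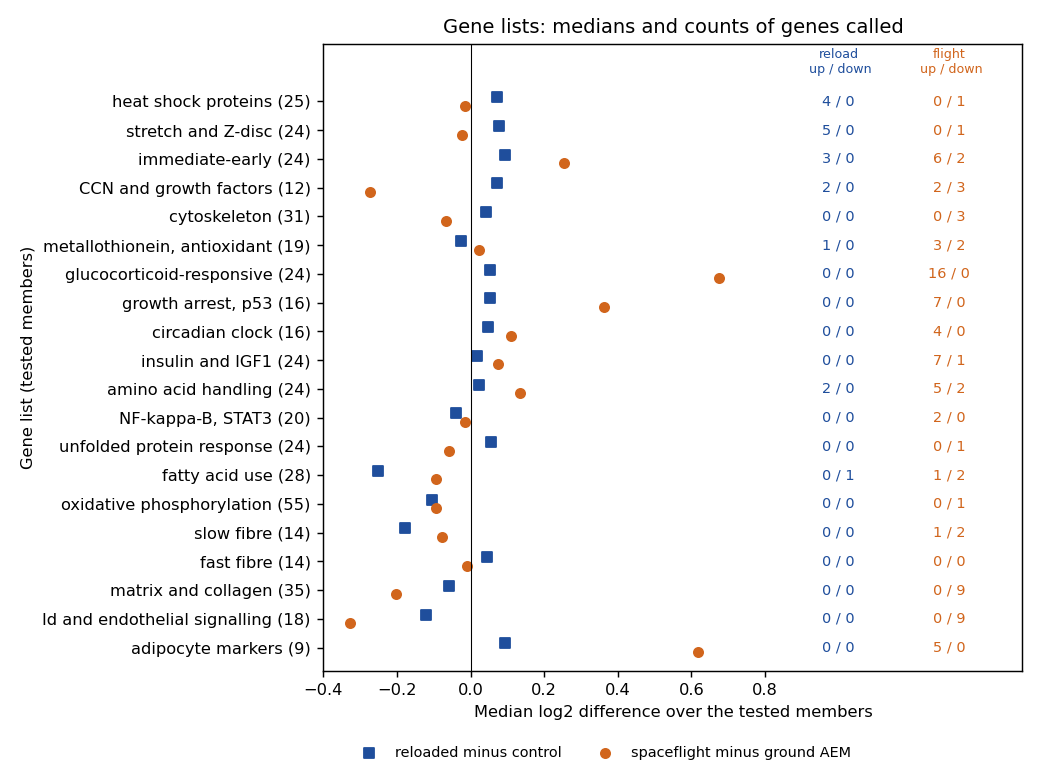
Median log2 difference over the tested members of 20 gene lists, for reloaded minus control (squares) and spaceflight minus ground AEM (circles), with the number of members called up and down on the right. Glucocorticoid-responsive genes have a flight median of 0.68 and a reloading median of 0.05; heat shock genes have 4 reloading calls and 1 flight call of 25, and stretch genes 5 and 1 of 24, beside 0.318% of all genes called after reloading and 5.64% in flight.

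With suspension in place of control as the baseline, 53 of the 9133 genes tested were called for the reloading hours, 50 higher and 3 lower. These 2 reloading effects share the reloaded arrays, so their values stand side by side and are not independent. Against this baseline, 7 responses were shown in flight (Jun, Btg2, Ier5, Ccn1, Hbegf, Midn and Sik1), 33 were lacked, 8 were reversed and 5 unresolved. The reversed genes were Slc38a2, Ppargc1a, Adamts1, Tpm4, Klf4, Pdlim1, a Z-disc PDZ-LIM protein, Clic4, a chloride channel protein, and Aox1, an aldehyde oxidase. Reloaded minus control values of Klf4 and Pdlim1 were -0.01 and -0.29, uncalled and of the same sign as their flight effects. Those of Tpm4, Clic4 and Aox1 were 0.33, 0.31 and -0.30, also uncalled and opposite in sign to flight. Hspa1b, Hspa1a, Atf3, Xirp1 and Rcan1 were lacked with reloaded minus suspension values of 3.01, 2.75, 2.23, 2.09 and 1.75. Ankrd1 and Csrp3, unresolved against control, were lacked here with values of 2.04 and 1.60, as was Hspb1 with 0.80. Tnfrsf12a, the Fn14 receptor, and Ankrd2, a titin-associated stretch sensor, were lacked with 1.42 and 1.24, against uncalled reloaded minus control values of 0.61 and 0.48. Of the 29 reloading responses, 18 were called against suspension, and of the 12 lacked genes 9 were, beside 53 of all 9133 genes tested. The 29 were chosen on the same reloaded arrays, which favours a high count. The lacked genes Plin5, Asb5 and Riok3 were not called against suspension. Neither were Mustn1, Serinc3, Bdh1, Cyp2e1, Gpt2, Fabp3, Idh2 and Ldhb.

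Of the 24 genes higher after reloading, 18 peaked in reloaded replicate 18, and 17 had their lowest reloaded value in replicate 16. Control replicate 2 was the highest control array in 17 of the 24. Without reloaded replicate 16, reloading called 43 genes with 9 shown and 3 reversed in flight.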

How the data were processed

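Muscle RNA was hybridised to 1 Affymetrix array per sample. The authors deposited log2 values for 22690 probe sets. RMA and MAS5 are named, per the submitters' processing notes; the sources used here name no versions and do not say which of them made the table. No further normalization was applied. After 64 control probe sets were left out, 20380 had 1 gene symbol in the platform table, 691 several and 1555 none. Each of 12393 genes was read from its probe set with the highest mean over the 23 arrays, and 9133 were tested, those above 5.83 (the 40th percentile) on at least 4 arrays.

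limma 3.58.1 in R 4.3.3 (two-sided moderated test, Benjamini-Hochberg over 9133 genes, called under 0.05) was fitted to 8 flight arrays, to 15 calf arrays, and for the difference of effects to all 23. It was tested on simulated data first. The number of arrays limits the precision.

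The members and the 34 gene lists were chosen with earlier results of these data known. Named genes were the 10 largest differences in each direction with no overlap in at least 1 experiment, the largest of each class, up to 4 members of each list that passed, and 30 fixed genes, of which 1 was below the filter. The remaining reloading responses, 7 genes, and those named against the suspension baseline were named after their values were seen. Symbols matched to RefSeq led to 0 changes. Some fixed genes are not reported here. Alternatives covered probe sets, filter, normalization, fit, threshold, baseline, exchanged labels and each array left out.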

Additional observations from a re-analysis of the deposited data

Results flagged for a closer look

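In 360 groups of 4 or 5 arrays of the named genes, the highest or lowest array was tested for its gap to the nearest other array (Dixon's criterion), and 11 arrays stood apart. Chance alone marks about 1 in 20 groups. Ground AEM replicate 2 was the highest of its group for Ddit4 at 10.68 (nearest array 7.80), Btg2 at 9.96 (8.73) and Zfp36 at 8.98 (7.90), and the lowest for Adipoq at 8.08 (8.57). Spaceflight replicate 11 was the lowest for Fos at 7.69 (9.49) and for Idh2 at 10.69 (11.07). Spaceflight replicate 10 was the highest for Cdkn1a at 10.77 (10.44), and spaceflight replicate 8 for Lep, the adipocyte hormone leptin, at 6.56 (6.05). Reloaded replicate 16 was the lowest for Btg2 at 7.92 (8.78) and for Bag3 at 9.69 (10.12). Control replicate 22 was the highest for Egr1 at 8.47 (7.22).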

How the results depend on the processing

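With 1 array left out at a time, the difference of effects called 181 to 298 genes, flight 283 to 515 and reloading 20 to 43, and 130 to 218 were flight-only (called in flight and in the difference, not after reloading). Responses shown numbered 4 to 9, lacked 6 to 15, reversed 0 to 3 and unresolved 6 to 17. Of the values of named genes under these omissions, 4529 kept their side of the threshold, 301 lost and 30 gained a call; under the other alternatives the numbers were 3053, 138 and 28. No called value changed its sign in these runs. Exchanged labels, which turn every flight sign, and the suspension baseline were run for counts alone and are not covered. Against suspension the reloading values of Bdh1 and Cyp2e1 have the other sign, as given above.

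Class counts moved most. Averaging probe sets per gene gave 3 reversed, and each probe set on its own 486 differences, 945 flight and 50 reloading calls, 11 shown, 6 reversed, 16 unresolved and 378 flight-only. Quantile normalization gave 2 reversed. A trend with robust estimation gave 4 shown, 2 reversed and 15 unresolved. Flight calls lost in that fit included Bdh1, Col1a1, Cyp2e1, Ddit4, Gadd45g, Maff, Mt1, Myog and Slc25a25. Their limma adjusted p ran from 0.0548 for Cyp2e1 to 0.14 for Col1a1. Also lost were the reloading call of Ccn1 (limma adjusted p = 0.0536) and the differences of Atf3, Xirp1, Adipoq and Maff. Array weights gave 436 differences, 88 reloading calls, 12 shown, 31 lacked, 4 reversed and 41 unresolved. Without the suspension arrays, reloading called 55 genes, with 20 lacked, 6 reversed and 20 unresolved. With each effect from its own 8 or 10 arrays there were 383 differences, 53 reloading calls, 20 lacked, 2 reversed and 21 unresolved. An adjusted p under 0.01 left 94 differences, 181 flight and 17 reloading calls, 2 shown, 4 lacked, 0 reversed and 75 flight-only. A change of at least 1.5-fold left 155 differences, 153 flight calls and 97 flight-only. With spaceflight and ground AEM exchanged, 1 was shown and 7 reversed, and 336 differences were called. Against suspension there were 33 lacked, 8 reversed, 5 unresolved and 309 flight-only. Arrays centred on their median split the differences into 124 higher and 122 lower, in place of 147 and 103. Apart from the settings whose construction shows it, the cause was not tested.

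No paired analysis was possible because spaceflight and ground AEM share no replicate numbers, and neither do reloaded and control. Signal, tissue and housing differ between experiments, and 4 or 5 arrays a group limit what a missed threshold says.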
